A study of Mus musculus with 6 samples.

Results

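The mitochondrial ribosomal proteins were described as 76 nuclear genes whose symbols begin with Mrpl (large subunit, 47 genes) or Mrps (small subunit, 29 genes) followed by a number. They were taken by this rule from 22163 gene rows that were listed once, marked OK in all 6 libraries and not of small RNAs. The rule reads symbols and not expression values, but it was chosen with earlier results of these data known. Poly-A RNA of peritoneal macrophages, the resident phagocytes of the abdominal cavity, was sequenced from C57Bl/6 mice that were either miR-221/222 -/Y (KO) or wildtype (WT). Tolerized KO and WT cells had been given 10 ng/ml lipopolysaccharide (LPS) for 15 h, washed, rested for 2 h and given 1000 ng/ml LPS for 4 h. KO and WT LPS cells received 1000 ng/ml LPS for 4 h without the earlier dose, and KO and WT naive cells were untreated. All cells were kept in DMEM with serum and antibiotics. The KO removes a pair of neighbouring X-linked microRNA genes, and how the allele was made is not given in the sources used here.

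Mitochondrial ribosomes translate the few respiratory chain subunits that mitochondrial DNA encodes. Their RNA is made inside the organelle, whereas all of their proteins are encoded in the nucleus, made in the cytosol and imported. The large subunit joins amino acids and passes the growing chain out through a tunnel next to the inner membrane, and the small subunit reads the messenger RNA. In macrophages LPS is known for a shift of energy metabolism away from respiration.

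One table was used for each of the 6 groups, so a group was 1 library, while the series' design text speaks of triplicates. Values are FPKM, fragments per kilobase of transcript scaled to all mapped fragments, a scale on which genes can be compared per length. FPKM summed to 573914 to 681618 per library, the 50 most abundant rows held 35.2% to 47.0% of it, and fragment counts were not used. The rows of Mir221 and Mir222 were listed at 0 in all 6 libraries, WT included, so they do not check the genotype. Macrophage markers (8 of 9 in the files) summed to 11638.5 to 48948.5 FPKM, most of it Lyz2 (8538 to 45135 FPKM). The other macrophage markers were lower, down to 3.56 FPKM for Fcgr1 and 8.37 FPKM for Mertk, both in WT LPS cells. In KO LPS cells Fcgr1 and Mertk had 19.6 and 114 FPKM. Fcgr1 had 127 and 25.8 FPKM in KO and WT tolerized cells. Cd14 went the other way, with 849 and 2297 FPKM in KO and WT LPS cells. B cell markers (6 of 6 in the files) summed to 263 to 662 FPKM, mast cell markers (5 of 5) to 105 to 198 FPKM and T and NK cell markers (7 of 7) to 12.8 to 41.1 FPKM. Neutrophil markers (5 of 6) summed to at most 8.85 FPKM with Ngp at 0 throughout, and all 5 mesothelial markers stayed under 1 FPKM.

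Promoter sequences are shown for 4 members because they carry binding motifs of nuclear factors known to drive genes of mitochondrial ribosomes, and Mrpl34 and Mrpl3 were chosen as members with opposite LPS values. RefSeq promoters of GRCm38.p6, read over the 250 bases before the start, were found for 67 of the 76 members. Capitals mark the motif: CCGGAAG for GABPA and other ETS factors in Mrpl34 (chr8:71464676-71464925, plus strand) and Mrpl3 (chr9:105053018-105053267, plus strand), GCGCANGCG for NRF1 on the opposite strand in Mrpl12 (chr11:120484387-120484636, plus strand), and AAGATGGC for YY1 on the opposite strand in Mrps12 (chr7:28741822-28742071, minus strand).
Mrpl34: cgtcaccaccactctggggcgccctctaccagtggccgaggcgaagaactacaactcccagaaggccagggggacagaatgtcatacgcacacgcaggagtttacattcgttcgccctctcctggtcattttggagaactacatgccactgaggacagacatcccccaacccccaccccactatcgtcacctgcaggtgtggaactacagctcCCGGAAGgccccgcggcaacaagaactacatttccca
Mrpl3: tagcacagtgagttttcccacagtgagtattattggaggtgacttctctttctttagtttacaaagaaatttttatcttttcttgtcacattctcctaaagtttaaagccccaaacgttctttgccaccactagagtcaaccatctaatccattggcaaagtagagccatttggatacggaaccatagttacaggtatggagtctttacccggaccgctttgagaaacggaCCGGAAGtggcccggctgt
Mrpl12: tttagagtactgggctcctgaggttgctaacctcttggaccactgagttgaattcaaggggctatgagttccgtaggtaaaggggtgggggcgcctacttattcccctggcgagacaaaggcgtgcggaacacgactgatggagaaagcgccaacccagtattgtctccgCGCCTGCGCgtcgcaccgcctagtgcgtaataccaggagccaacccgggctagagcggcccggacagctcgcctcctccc
Mrps12: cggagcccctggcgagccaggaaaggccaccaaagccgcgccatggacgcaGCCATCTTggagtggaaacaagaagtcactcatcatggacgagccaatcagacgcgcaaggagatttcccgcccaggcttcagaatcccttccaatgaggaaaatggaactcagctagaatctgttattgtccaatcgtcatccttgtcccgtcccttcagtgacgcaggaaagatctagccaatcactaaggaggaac
On either strand, CCGGAAG was present in 16 of 67 members (23.9%), against 15.3% of 7387 promoters of tested genes and 7.05% of all 27025 promoters. GCGCANGCG was present in 12 members (17.9%), against 12.3% of tested and 5.33% of all genes. AAGATGGC was present in 4 members (5.97%), against 2.18% of tested and 1.59% of all genes. The E-box CACGTG was found in 5 members (7.46%), against 8.98% of tested genes, and CCAAT in 25 (37.3%), against 36.4%. CACGTG and CCAAT were therefore about as frequent in members as in other expressed genes, and none of these shares was tested. No motif contains another. The ETS motif was present in 22.9% of the members that fell with LPS and in 25.0% of the other members. For NRF1 these shares were 17.1% and 18.8%, for YY1 8.57% and 3.1%, for the E-box 5.71% and 9.4%, and for CCAAT 45.7% and 28.1%. The members with promoters numbered 35 and 32, and these splits were not tested.

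All 76 members were detected in every library and all passed the filter used for testing, at least 2 FPKM in at least 2 libraries. Mean FPKM over the 6 libraries ranged from 4.09 for Mrpl19 to 180.2 for Mrpl52, with a median of 19.4. The highest after Mrpl52, a protein that bacteria lack, were Mrps21, Mrpl33, Mrpl20 and Mrpl24, all with bacterial counterparts. The lowest were Mrpl35, Mrpl1, Mrps25, Mrpl17 and Mrpl19. Mrpl1 belongs to the flexible stalk that guides used transfer RNA out, and Mrps25 is found in mitochondria but not in bacteria. In this ordering 6 members averaged over 50 FPKM, 58 lay between 10 and 50, and 12 were below 10. To either side of the value the deposited interval reached 9.1% to 12.6% of it at the median over members, depending on the library, which covers counting error only. The highest library of a member was 1.25 times the lowest for Mrpl39 and 6.41 times for Mrpl34, with a median of 2.26.

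Mrpl52 had 194 and 245 FPKM in KO and WT tolerized cells, 127 and 173 FPKM in KO and WT LPS cells, and 199.7 and 142 FPKM in KO and WT naive cells. Its highest library was WT tolerized and its lowest KO LPS. Mrps21 had 85.4 and 98.7 FPKM in KO and WT tolerized cells, 61.6 and 57.4 FPKM in KO and WT LPS cells, and 168 and 124 FPKM in KO and WT naive cells. Both LPS libraries were below the other 4. Mrpl19, the lowest member on average, had 4.59 and 4.78 FPKM in KO and WT tolerized cells, 3.04 and 3.97 FPKM in KO and WT LPS cells, and 4.28 and 3.85 FPKM in KO and WT naive cells. Both tolerized libraries were the highest, and LPS and naive libraries overlapped.

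Summed over members, FPKM was 1877 in KO and 2071 in WT tolerized cells, 1304 in KO and 1735 in WT LPS cells, and 2675 in KO and 2110 in WT naive cells. As a share of all FPKM this was 0.293% and 0.308% in KO and WT tolerized cells, 0.216% and 0.254% in KO and WT LPS cells, and 0.421% and 0.368% in KO and WT naive cells. Both LPS libraries were the lowest and both naive libraries the highest. Large-subunit transcripts, by symbol, summed to 1.82 (WT naive) to 2.11 (KO tolerized) times the small-subunit sum.

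**Figure D1:**
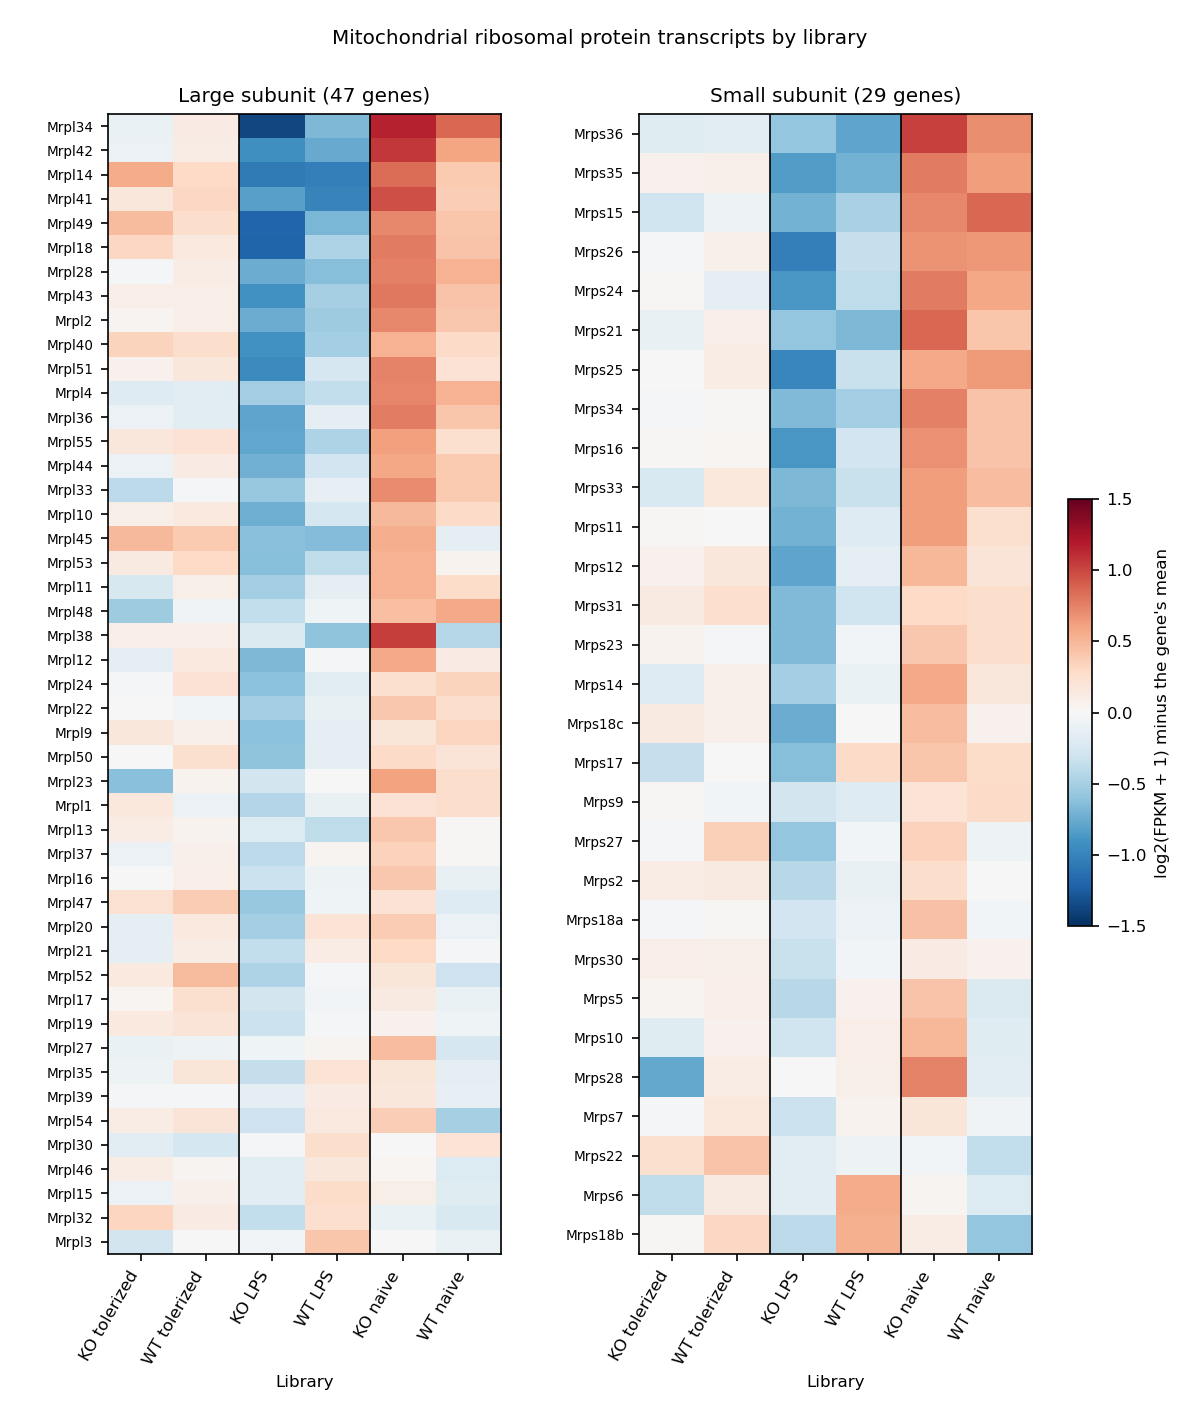
Each cell is log2(FPKM + 1) of 1 gene in 1 library minus that gene's mean over the 6 libraries, for 47 large-subunit and 29 small-subunit genes ordered by their LPS difference. The KO naive column is mostly red and the KO LPS column mostly blue, and the genes at the bottom (Mrpl3, Mrps6 and Mrps18b) are highest in the WT LPS library.

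With LPS, 38 of the 76 members fell and 0 rose, as deposited, against 54.4% of 10137 tested genes that fell and 8.74% that rose. The share of members that fell, 25 of 47 large-subunit and 13 of 29 small-subunit genes by symbol, was near that background. Conditions were compared by limma on log2(FPKM + 1) over both genotypes, 2 libraries a condition, with p-values adjusted by Benjamini-Hochberg over all tested genes and a threshold of 0.05. The median log2 difference of members was -0.67 as deposited, against -0.76 for all tested genes, and 0.14 after each library was rescaled by its median ratio to the others, which moved the all-gene median to about 0. The direction of the family as a whole depends on the scaling, and its place relative to other genes on single libraries. The median was -0.44 for members against -0.70 for all genes without the KO LPS library, and -0.47 against -0.72 without KO naive. It was -0.90 against -0.81 without WT LPS, and -0.93 against -0.79 without WT naive. After rescaling 8 members fell and 9 rose, against 24.2% and 22.6% of all genes. In bulk RNA, fewer cells of a type and less RNA per cell cannot be told apart. Without the KO LPS library 19 members fell and 0 rose, against 40.5% and 6.99% of genes, and without the KO naive library 20 fell and 1 rose, against 45.7% and 8.76%, so the share of members that fell was then below the background. Single members ranged from -2.02 to 0.30.

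The largest fall was that of Mrpl34 (mm9 chr8:73988825-73989652), the counterpart of a very small bacterial large-subunit protein, whose promoter is printed above. Mrpl34 had 17.1 and 20.1 FPKM in KO and WT tolerized cells, 6.55 and 11.2 FPKM in KO and WT LPS cells, and 42.0 and 34.2 FPKM in KO and WT naive cells. The pairs of libraries of the 3 conditions did not overlap. Its log2 difference between LPS and naive cells was -2.02 ± 0.27 (SE; limma adjusted p = 0.0014). Mrpl14 (mm9 chr17:45823321-45835444), which lies at the face where both subunits meet, had 34.3 and 28.6 FPKM in KO and WT tolerized cells, 10.5 and 10.8 FPKM in KO and WT LPS cells, and 41.8 and 30.6 FPKM in KO and WT naive cells. Both LPS libraries were below the other 4, and tolerized and naive libraries overlapped. It fell by 1.66 ± 0.21 (SE; limma adjusted p = 0.0012) with LPS.

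Mrpl42, one of the proteins that bacterial ribosomes lack, had 16.0 and 18.5 FPKM in KO and WT tolerized cells, 8.58 and 9.65 FPKM in KO and WT LPS cells, and 36.7 and 26.2 FPKM in KO and WT naive cells. Its LPS libraries were lowest and its naive libraries highest, and it fell by 1.66 ± 0.24 (SE; limma adjusted p = 0.0018). Mrpl41, another such protein, which in human cells has been reported to bind BCL2, had 6.81 and 7.63 FPKM in KO and WT tolerized cells, 2.97 and 2.47 FPKM in KO and WT LPS cells, and 12.6 and 7.97 FPKM in KO and WT naive cells. It fell by 1.57 ± 0.24 (SE; limma adjusted p = 0.002), and its mm9 span (chr2:24827990-24830618) overlaps that of Wdr85. Mrps36, which is now assigned to the oxoglutarate dehydrogenase complex and not to the ribosome, had 14.4 and 14.6 FPKM in KO and WT tolerized cells, 10.7 and 9.11 FPKM in KO and WT LPS cells, and 34.7 and 27.4 FPKM in KO and WT naive cells. It fell by 1.55 ± 0.20 (SE; limma adjusted p = 0.0012). These 5 genes passed the threshold under every alternative tried, rescaling and the omission of each library included. Mrpl49, Mrps35 and Mrps15 were the other members that also fell after rescaling.

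**Figure D2:**
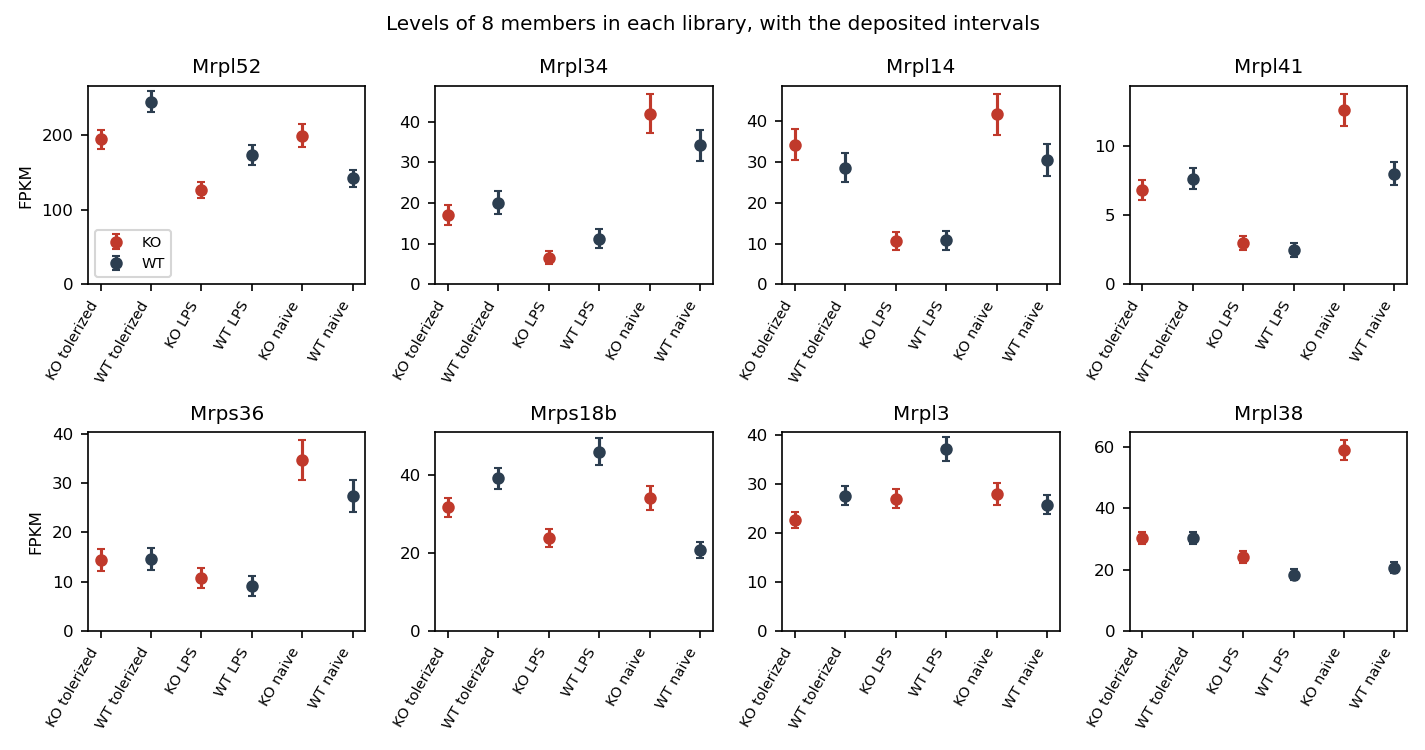
FPKM of 8 members in the 6 libraries, KO in red and WT in dark blue, with bars for the deposited intervals, which cover counting error only. Mrpl34, Mrpl14, Mrpl41 and Mrps36 are lowest in both LPS libraries, Mrps18b and Mrpl3 are highest in the WT LPS library, and Mrpl38 stands out in the KO naive library at 59.2 FPKM.

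Among proteins of the large subunit's core, Mrpl2 and Mrpl4, which line the core and the tunnel, fell by 1.20 ± 0.22 and 1.07 ± 0.20 (SE; limma adjusted p = 0.004 and 0.0047), and had -0.39 and -0.26 after rescaling (limma adjusted p = 0.17 and 0.31). Mrpl3, a core protein near the catalytic site, had 22.6 and 27.6 FPKM in KO and WT tolerized cells, 27.0 and 37.1 FPKM in KO and WT LPS cells, and 27.9 and 25.7 FPKM in KO and WT naive cells. The WT LPS library was the highest, while the KO LPS library lay within the range of the naive ones. Its log2 difference was 0.23 ± 0.22 (SE; limma adjusted p = 0.39) as deposited, and after rescaling it rose by 1.06 (limma adjusted p = 0.0095). Mrpl3 and Mrpl34, whose promoters both hold an ETS motif close to the start, were thus near opposite ends of the family.

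In the stalk that recruits translation factors, Mrpl10 and Mrpl11 fell by 0.88 ± 0.23 and 0.73 ± 0.23 (SE; limma adjusted p = 0.017 and 0.031). Mrpl12, the stalk protein that also binds mitochondrial RNA polymerase, had 28.5 and 34.9 FPKM in KO and WT tolerized cells, 19.4 and 31.2 FPKM in KO and WT LPS cells, and 47.2 and 34.4 FPKM in KO and WT naive cells. Its LPS and naive libraries did not overlap, but the log2 difference of -0.69 ± 0.30 did not pass the threshold (SE; limma adjusted p = 0.085). Of 5 members of the central protuberance, the part of the large subunit that faces the head of the small one, Mrpl18, Mrpl40 and Mrpl48 fell by 1.44 ± 0.30, 1.12 ± 0.23 and 0.72 ± 0.20 (SE; limma adjusted p = 0.0069, 0.0065 and 0.019). Mrpl38 and Mrpl46 of the same structure had log2 differences of -0.71 ± 0.36 and 0.09 ± 0.22 (SE; limma adjusted p = 0.13 and 0.73). Around the tunnel exit, Mrpl45, which holds the ribosome at the inner membrane, fell by 0.84 ± 0.24 (SE; limma adjusted p = 0.021). Its neighbours Mrpl22 and Mrpl24 fell by 0.66 ± 0.22 and 0.67 ± 0.22 (SE; limma adjusted p = 0.039 and 0.036), and Mrpl23 had -0.58 ± 0.28 (SE; limma adjusted p = 0.12). Mrpl36, the counterpart of the smallest bacterial ribosomal protein, fell by 1.05 ± 0.29 (SE; limma adjusted p = 0.019). The falls in this paragraph lost the threshold after rescaling.

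In the small subunit, Mrps12, which sits at the decoding centre, had 23.2 and 25.1 FPKM in KO and WT tolerized cells, 12.3 and 20.0 FPKM in KO and WT LPS cells, and 31.8 and 25.5 FPKM in KO and WT naive cells. Both LPS libraries were below the other 4, and it fell by 0.82 ± 0.27 as deposited (SE; limma adjusted p = 0.038), with a rescaled difference near 0. The paralogs Mrps18a, Mrps18b and Mrps18c descend from 1 bacterial protein and occupy separate places, Mrps18a in the large subunit despite its symbol. Mrps18a had 42.9 and 44.3 FPKM in KO and WT tolerized cells, 35.7 and 41.1 FPKM in KO and WT LPS cells, and 59.8 and 42.5 FPKM in KO and WT naive cells. Mrps18c had 53.3 and 51.0 FPKM in KO and WT tolerized cells, 28.5 and 48.4 FPKM in KO and WT LPS cells, and 66.9 and 50.7 FPKM in KO and WT naive cells. Neither passed the threshold, with log2 differences of -0.39 ± 0.25 and -0.63 ± 0.31 (SE; limma adjusted p = 0.21 and 0.12). Mrps18b (mm9 chr17:36047330-36053314) had 31.7 and 39.1 FPKM in KO and WT tolerized cells, 23.8 and 46.0 FPKM in KO and WT LPS cells, and 34.1 and 20.8 FPKM in KO and WT naive cells. The WT LPS library was the highest and the WT naive library the lowest, with the KO libraries between them. Its log2 difference was 0.30 ± 0.38 (SE; limma adjusted p = 0.51), the highest of the 76, and it passed the threshold after rescaling (1.13, limma adjusted p = 0.045). Mrps30, also placed in the large subunit by later structures, differed by -0.29 ± 0.20 (SE; limma adjusted p = 0.25). The other members that rose after rescaling were Mrps6, Mrps22, Mrpl15, Mrpl30, Mrpl32, Mrpl39 and Mrpl46, and none of them passed the threshold as deposited.

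**Figure D3:**
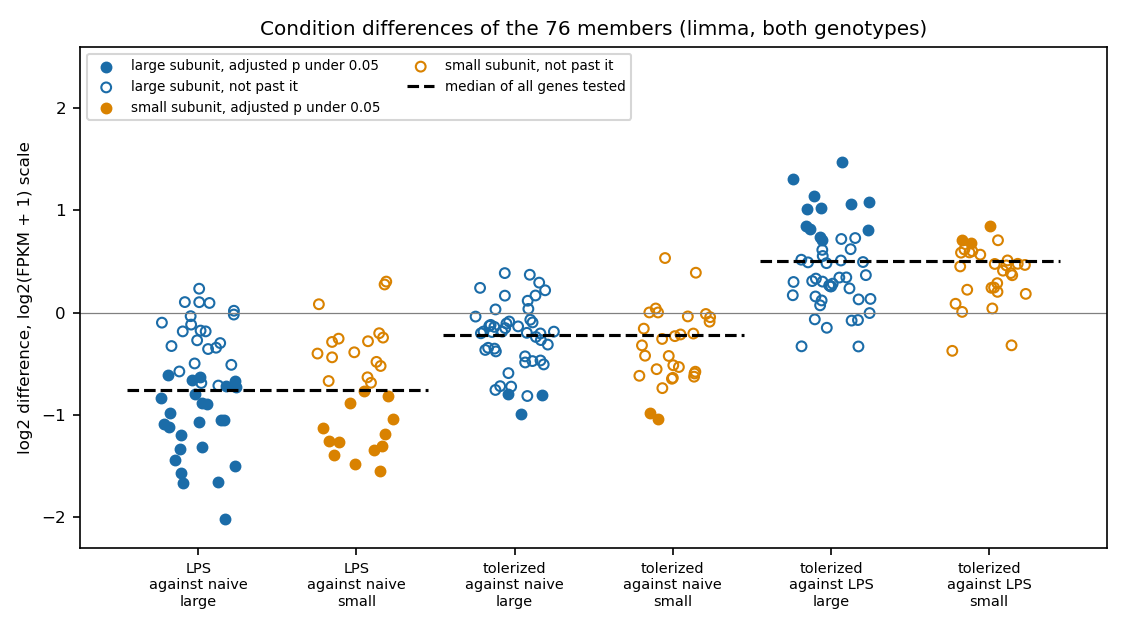
Log2 differences of the 76 members between conditions, from limma over both genotypes as deposited, with large-subunit genes in blue and small-subunit genes in orange. Filled points passed an adjusted p of 0.05, the dashed lines are the medians of all 10137 tested genes (-0.76, -0.22 and 0.51), and members scatter around those lines in each comparison. After rescaling, the member medians were 0.14, 0.01 and -0.15.

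Between tolerized and naive cells, 5 members fell and 0 rose as deposited, against 19.7% of tested genes that fell and 7.41% that rose, and the member median of -0.21 was next to the all-gene median of -0.22. This rested on both naive libraries, since the medians were 0.03 for members against -0.20 for all genes without KO naive, and -0.52 against -0.25 without WT naive. Mrps36 fell by 1.04 ± 0.20, Mrpl34 by 0.99 ± 0.27 and Mrps15, the counterpart of a bacterial small-subunit protein, by 0.98 ± 0.19 (SE; limma adjusted p = 0.014, 0.041 and 0.015). Mrpl4 and Mrpl48 fell by 0.80 ± 0.20 and 0.80 ± 0.20 (SE; limma adjusted p = 0.032 and 0.031). Mrps15 had 21.2 and 25.0 FPKM in KO and WT tolerized cells, 15.8 and 18.5 FPKM in KO and WT LPS cells, and 44.2 and 48.9 FPKM in KO and WT naive cells. Its tolerized libraries stayed well below both naive ones. All 5 genes also fell with LPS, in a comparison that uses the same naive libraries. Mrps36 and Mrps15 were the only ones of the 5 that passed after rescaling, where 2 members fell and 0 rose, against 11.4% and 9.47% of genes. No member fell without the KO naive library or without the KO tolerized library, against 15.5% and 12.9% of genes, and 1 fell without the WT tolerized library, against 9.96%.

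Between tolerized and LPS cells, 15 members rose and 0 fell as deposited, against 36.8% of tested genes that rose and 4.32% that fell. The member median was 0.40, against 0.51 for all genes, and -0.15 after rescaling, against -0.01. Without the WT LPS library it was 0.64, against 0.55 for all genes, and without KO LPS 0.18, against 0.46, so whether the family stood above or below other genes depended on 1 library. All 15 genes were among the 38 that fell with LPS. Both comparisons use the same LPS libraries, so a low LPS value counts in both and this overlap is not a separate result. Mrpl14 was higher in tolerized cells by 1.47 ± 0.21 (SE; limma adjusted p = 0.008) and, with tolerized libraries at 3.25 (KO) and 2.66 (WT) times the LPS ones, overlapped with naive cells. It was the 1 member that also rose after rescaling (0.91, limma adjusted p = 0.033), where 8.88% of genes rose. Mrpl49, a protein that bacteria lack, rose by 1.31 ± 0.25 and Mrpl41 by 1.15 ± 0.24 (SE; limma adjusted p = 0.013 and 0.014). The membrane anchor Mrpl45 rose by 1.08 ± 0.24 and Mrpl18 by 1.06 ± 0.30 (SE; limma adjusted p = 0.017 and 0.034). Mrpl45 had 17.9 and 16.7 FPKM in KO and WT tolerized cells, 7.71 and 7.54 FPKM in KO and WT LPS cells, and 18.6 and 11.1 FPKM in KO and WT naive cells. Both tolerized libraries exceeded both LPS libraries by more than 2-fold. After rescaling, Mrpl3 and Mrpl30 fell (-0.92 each, limma adjusted p = 0.037 and 0.034), against 9.28% of genes. The count of 15 was 0 without the KO LPS library, against 2.97% of genes, 3 without WT tolerized (19.8%), 4 without KO tolerized (16.2%) and 5 without WT LPS (11.7%).

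Between genotypes, 0 members passed the threshold in limma over 3 KO and 3 WT libraries, as did 0 of all 10137 genes (0% in either direction). At an unadjusted p under 0.05 there were 0 members and 707 genes. The member median was -0.08, against -0.06 for all genes, with a range of -0.38 to 0.62. The median was -0.26 without either naive library and 0.10 without either LPS library, so its sign depended on single libraries. Without the WT tolerized library 154 genes rose and 84 fell and without the KO tolerized library 155 rose and 84 fell, with 0 members among them. The fit assumes 1 KO effect for all conditions, and the values below differ in sign between conditions.

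Within conditions there was 1 library per genotype, so the following differences have no replicate check and no test. In naive cells the KO library was higher than the WT library for 68 of 76 members, against 46.7% of all tested genes, and lower for 8, against 53.2%, with a median log2 difference of 0.31. The deposited intervals did not overlap for 40 of the higher members (25.2% of genes) and 0 of the lower ones (30.2% of genes). In LPS cells the KO library was lower for 70 of 76 members, against 60.1% of genes, and higher for 6, against 39.9%, with a median of -0.40. The intervals did not overlap for 45 of the lower members (34.9% of genes) and 1 of the higher ones (22.6% of genes). In tolerized cells the KO library was lower for 54 members, against 52.9% of genes, and higher for 22, against 47.1%, with a median of -0.10, and the intervals did not overlap for 19 lower (22.3% of genes) and 0 higher members (21% of genes). After rescaling the KO library was higher for 68 members in naive cells, against 49.5% of genes, and lower for 64 in LPS cells, against 51.1%, and for 49 in tolerized cells, against 49.4%. The KO library was thus higher in naive cells and lower in LPS cells for most of the family, under both scalings.

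The LPS difference of every member (76 of 76) was lower in KO than in WT cells as deposited, against 55.7% of all tested genes, and after rescaling this held for 73, against 50.7%. The median member difference was -1.01 in KO and -0.38 in WT cells, against all-gene medians of -0.82 and -0.70. In KO cells 38 members were at least 2-fold lower with LPS and 0 were higher, against 41.4% and 6.74% of genes. In WT cells 10 were at least 2-fold lower and 1 was higher, against 38.4% and 8.14% of genes. All 76 were below their naive value in KO cells (80.9% of genes), and 50 were in WT cells (75.5% of genes). The other 26 were lower with LPS in KO and higher in WT cells, against 9.62% of genes, and 0 went the opposite way, against 4.3%. After rescaling 6 members were at least 2-fold lower and 0 higher in KO cells, against 15% and 15.4% of genes, and 0 were lower and 14 higher in WT cells, against 18% and 17.7%. As deposited, KO LPS was the lowest of the 6 libraries for 58 members (45.8% of genes) and KO naive the highest for 55 (24.6% of genes), while after rescaling these were 20 (21.4%) and 27 (15.1%). After rescaling WT naive was the lowest library for 33 members (24.6% of genes) and WT LPS the highest for 39 (23% of genes), so which libraries stood at the ends depended on the scaling. LPS values were then below naive ones for 44 members in KO cells (51.2% of genes) and 20 in WT cells (49.6%). The difference between tolerized and naive cells uses the same naive libraries and so is not a separate result. As deposited, the tolerized minus naive difference was lower in KO than in WT cells for 71 members, against 48.2% of genes. This difference was below 0 in KO and above 0 in WT cells for 29 members, against 11.5% of genes, and the reverse for 0, against 10.2%. Whether these effects differ between genotypes could not be tested, because a model with such a term leaves no residual degrees of freedom.

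**Figure D4:**
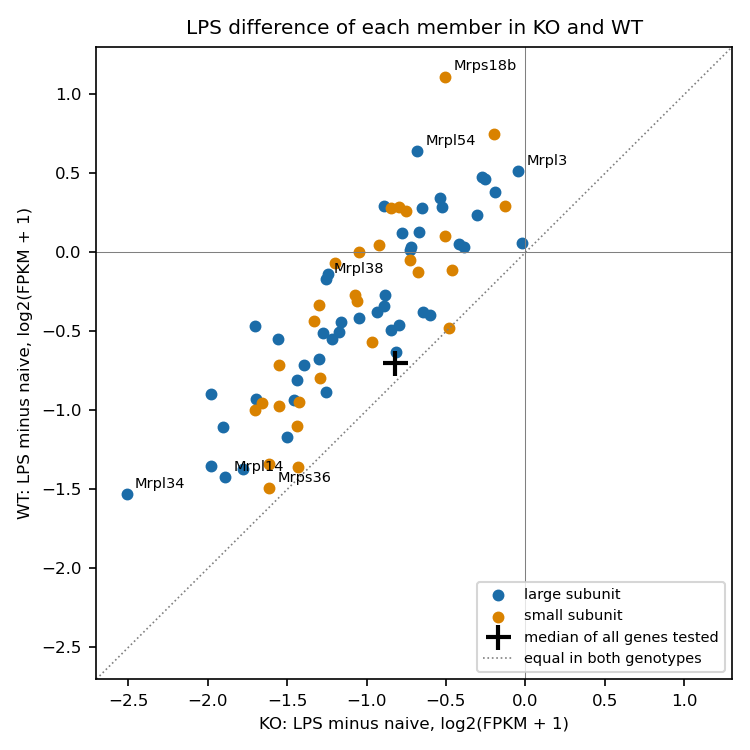
LPS minus naive difference of each member on the log2(FPKM + 1) scale as deposited, in KO cells (horizontal) and WT cells (vertical), 1 library per group. All 76 points lie above the dotted line of equal differences, and the cross marks the medians of all tested genes, -0.82 in KO and -0.70 in WT; after rescaling 73 of 76 stayed above the line.

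Other features are given beside this pattern, not all of which followed it, and their part in it was not tested. Members had a median transcript length of 1038 bases, against 2091.5 for tested genes, in GENCODE M21. Of all tested genes with transcripts up to 1000 bases 71.3% had a lower LPS difference in KO cells, as did 65.4% from 1000 to 2000, 51.3% from 2000 to 4000 and 28.5% above 4000 bases. The members fell 36, 24, 13 and 3 into these classes and all had a lower difference in KO cells. Cytosolic ribosomal proteins, also short, had a lower LPS difference in KO cells for 77 of 81 genes, but their KO minus WT median was -0.25 in naive cells, where that of the members was 0.31, and -0.56 in LPS cells. Nuclear-encoded respiratory chain subunits had it for 68 of 77 genes, with medians of 0.37 in naive and -0.14 in LPS cells. Mitoribosomal proteins under other symbols had it for 6 of 7 genes, with medians of 0.24 and -0.54. Mitoribosome assembly and rRNA modification factors had it for 19 of 22 genes and mitochondrial aminoacyl-tRNA synthetases for 12 of 19. For mitochondrial translation factors it was 8 of 14, for mitochondrial transcription and RNA stability 8 of 13, and for nuclear regulators 5 of 9. The length classes were chosen after the pattern was seen. The B cell marker sum was 548 FPKM in KO and 437 in WT tolerized cells, 263 in KO and 294 in WT LPS cells, and 500 in KO and 662 in WT naive cells.

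Few members had the same sign of KO minus WT in all 3 conditions, 3 with KO higher and 4 with KO lower, against 10.8% and 18.2% of genes. After rescaling these were 6 and 4 members, against 13.7% and 14% of genes. Mrpl38, of the central protuberance (mm9 chr11:115993131-116000182), had 30.4 and 30.3 FPKM in KO and WT tolerized cells, 24.2 and 18.3 FPKM in KO and WT LPS cells, and 59.2 and 20.7 FPKM in KO and WT naive cells. The KO naive library was 2.86 times the WT naive one and the highest of the 6, the KO LPS library was also above the WT one, and the tolerized libraries were level. It was the 1 member at least 2-fold apart between genotypes in any condition. A gap of this size was found in naive cells for 3.95% of genes with KO higher and 2.55% with KO lower, in LPS cells for 3.45% and 2.51%, and in tolerized cells for 1.67% and 0.671%. Mrpl45 and Mrpl13, which has a bacterial counterpart, were also higher in KO cells, with mean log2 differences over the conditions of 0.27 and 0.21. These means came mostly from naive cells. Mrpl45 differed by 0.09 in tolerized, 0.03 in LPS and 0.70 in naive cells, and Mrpl13 by 0.06, 0.18 and 0.38. Mrpl48, Mrps25, Mrpl24 and Mrps15 were lower in KO cells in all conditions, with mean log2 differences of -0.31, -0.27, -0.26 and -0.20. Mrps25 had 5.20 and 5.69 FPKM in KO and WT tolerized cells, 2.16 and 3.92 FPKM in KO and WT LPS cells, and 8.25 and 8.66 FPKM in KO and WT naive cells. Its genotype gap was largest in LPS cells (-0.64) and small in the other conditions (-0.06 in naive and -0.11 in tolerized cells). The spans of Mrpl48, Mrps25 and Mrpl24 each overlap in part another gene in mm9 (Rab6a, Nr2c2 and Rrnad1). Since strand use is not stated, reads in the shared stretches may not be told apart. Overlaps of this kind concerned 9 of the 76 members.

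The surrounding pathway was read from lists of genes, with the same fit, beside the 54.4% of all tested genes that fell with LPS and the 36.8% that were higher in tolerized than in LPS cells as deposited (24.2% and 8.88% after rescaling). Mitoribosomal proteins under other symbols had 4 of 7 lower with LPS, Ict1, a peptide release protein of the large subunit, and Dap3, a GTP-binding small-subunit protein, among them (-1.04 and -0.91, limma adjusted p = 0.010 and 0.0086). After rescaling 0 of the 7 passed, Ict1 and Dap3 included. As deposited, their median was -0.77. Mitochondrial translation factors had 11 of 14 lower, with a median of -1.13, and 10 of 14 higher in tolerized than in LPS cells. Among them were Guf1, a GTPase that acts on the elongating ribosome (-1.83), Mtrf1, a release factor (-1.72), and Oxa1l, which inserts new chains into the inner membrane (-1.67), with limma adjusted p = 0.00073, 0.0013 and 0.0012. After rescaling 6 of 14 were lower with LPS, these 3 included, and 3 of 14 higher in tolerized than in LPS cells. The elongation factor Gfm1 had a log2 difference of -0.10 (limma adjusted p = 0.74).

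Assembly and rRNA modification factors had 15 of 22 lower with LPS, with a median of -0.80, and 11 of 22 higher in tolerized than in LPS cells. After rescaling 6 were lower and 3 higher with LPS, and 0 were higher in tolerized than in LPS cells. Rbfa, which acts in maturation of the small subunit, had 11.4 and 11.7 FPKM in KO and WT tolerized cells, 3.88 and 4.78 FPKM in KO and WT LPS cells, and 23.9 and 24.2 FPKM in KO and WT naive cells. The 3 conditions did not overlap, and Rbfa fell by 2.24 with LPS (limma adjusted p = 0.00050). Mtg1, a GTPase of large-subunit assembly, fell by 1.90 (limma adjusted p = 0.00061), and both genes also fell after rescaling (-1.48 and -1.26, limma adjusted p = 0.0028 and 0.0035). Mitochondrial aminoacyl-tRNA synthetases and related enzymes, which charge transfer RNAs for this ribosome, had 14 of 19 tested genes lower, with a median of -1.02, and 11 of 19 higher in tolerized than in LPS cells. After rescaling 6 were lower and 1 higher with LPS, and 3 were higher in tolerized than in LPS cells. Gatc, a subunit of the amidotransferase that makes glutaminyl-tRNA, fell by 2.09 (limma adjusted p = 0.00057), and by 1.34 after rescaling (limma adjusted p = 0.0033). Leucyl-tRNA synthetase Lars2 had a log2 difference of -0.38 (limma adjusted p = 0.25).

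Genes of mitochondrial transcription and RNA stability were 7 lower and 1 higher of 13 with LPS as deposited, and 0 lower and 3 higher after rescaling. Pnpt1, which rose under both scalings, encodes polynucleotide phosphorylase and had 16.4 and 16.6 FPKM in KO and WT tolerized cells, 46.1 and 68.5 FPKM in KO and WT LPS cells, and 15.3 and 16.8 FPKM in KO and WT naive cells. Both LPS libraries were far above the other 4, and the log2 difference was 1.75 (limma adjusted p = 0.0012). Hsd17b10, a subunit of mitochondrial RNase P, fell by 1.40 (limma adjusted p = 0.0033), a call that was lost after rescaling (-0.57, limma adjusted p = 0.094).

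Of 9 tested nuclear regulators of mitochondrial biogenesis, Myc and Gabpb1 rose and Gabpb2 and Sp1 fell with LPS as deposited. After rescaling 4 rose and 1 fell, Sp1 no longer passing and Nrf1 and Pprc1 being added. Myc had 19.3 and 21.6 FPKM in KO and WT tolerized cells, 50.6 and 52.0 FPKM in KO and WT LPS cells, and 5.02 and 3.60 FPKM in KO and WT naive cells. The conditions did not overlap, and Myc rose by 3.31 (limma adjusted p = 0.00037). Gabpb1 and Gabpb2 encode alternative partners of the ETS factor GABPA, and they differed by 0.79 and -1.74 (limma adjusted p = 0.016 and 0.00097). Gabpa itself differed by -0.36 and Nrf1 by 0.13, neither past the threshold as deposited (limma adjusted p = 0.16 and 0.62), and Nrf1 rose by 0.90 after rescaling (limma adjusted p = 0.016).

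Cytosolic ribosomal proteins, of the other ribosome of the cell, had 6 of 81 lower with LPS, with a median of -0.47, and in tolerized against LPS cells 0 rose and 1 fell, with a median of -0.19, where that of the members was 0.40. After rescaling 0 fell and 2 rose with LPS, and 14 fell in tolerized against LPS cells, with a median of -0.78 against -0.15 for the members. Nuclear-encoded respiratory chain subunits had 43 of 77 lower with LPS, 3 of 77 higher in tolerized than in LPS cells and 19 of 77 lower in tolerized than in naive cells, against 38, 15 and 5 of the 76 members. Their medians were -0.79, 0.11 and -0.66, against -0.67, 0.40 and -0.21 for the members. After rescaling 8 of the 77 fell and 1 rose with LPS, 0 rose and 1 fell in tolerized against LPS cells and 6 fell in tolerized against naive cells. No list was tested as a whole. After rescaling, the LPS medians were -0.53 for translation factors, -0.54 for the synthetases, 0.38 for cytosolic ribosomal proteins, 0.04 for respiratory chain subunits and 0.14 for the members.

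**Figure D5:**
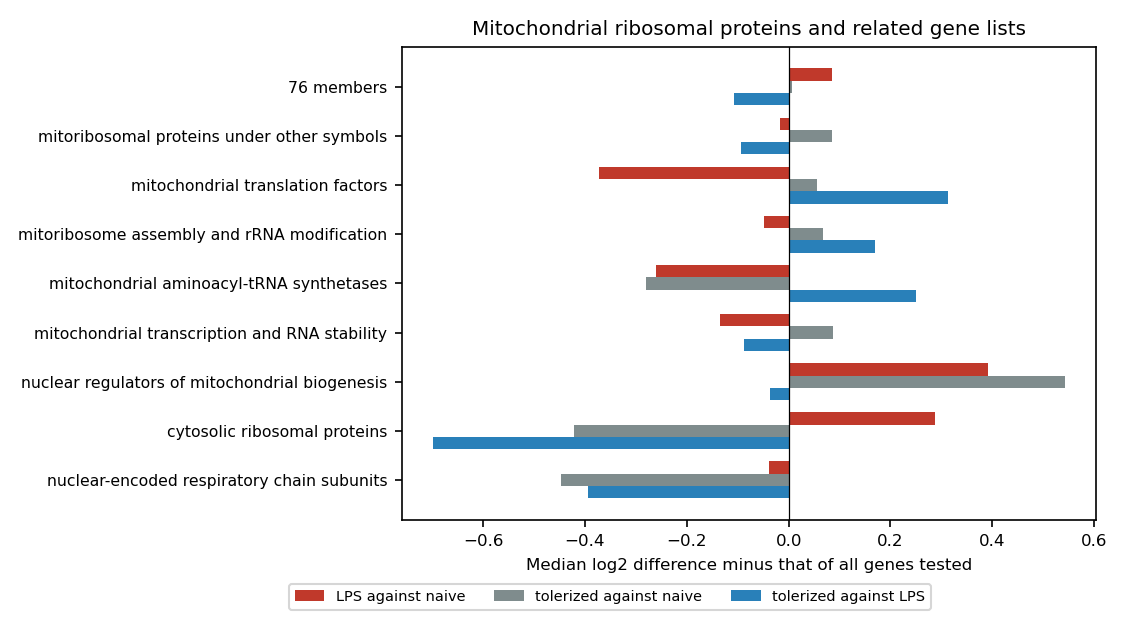
Median log2 difference of the members and of 8 gene lists minus the median of all tested genes, as deposited, for LPS against naive, tolerized against naive and tolerized against LPS. The members lie within 0.11 of all genes in each comparison, translation factors lie 0.37 below them with LPS and 0.31 above them in tolerized against LPS cells, and cytosolic ribosomal proteins lie 0.70 below all genes in tolerized against LPS cells.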

How the data were processed

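Total RNA was poly-A selected and TruSeq libraries were prepared, per the labels' protocols. The authors deposited gene tables for the 6 libraries, holding FPKM and an interval around it, per the file headers. The tools named are bcl2fastq 1.8.4, TopHat and Cufflinks, with mouse build mm9, per the submitters' processing notes. Other versions, the annotation, strand use and any pooling of triplicates were not stated.

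Of 23699 rows per table, those not OK in some library (349), with repeated symbols (529) or of small RNAs (658) were left out, leaving 22163. Samples were grouped by title. From the deposited FPKM, log2(FPKM + 1) of 10137 genes that reached 2 FPKM in 2 or more libraries entered limma 3.58.1 (R 4.3.3; lmFit, then eBayes using a trend; two-sided) with additive terms for genotype and condition. This left 2 residual degrees of freedom beside 4.2 prior ones, and the script was tested on simulated data. Benjamini-Hochberg adjustment ran over all tested genes, the threshold was 0.05, and "rose" and "fell" are used only past it in either scaling. Differences on this scale understate those of low genes. With 1 library a group, the residual spread is how far condition differences disagree between KO and WT cells. It holds no spread among replicates of a group. Standard errors and p-values therefore reflect this disagreement, part of which may be technical. Nothing states that libraries came from separate animals or cultures. For rescaling, libraries were divided by median-of-ratios factors of 1.08, 0.69 and 1.29 in KO and 1.10, 0.75 and 1.31 in WT tolerized, LPS and naive cells.

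Alternatives were a pseudocount of 0.1, no filter, a minimum of 5 FPKM, rescaling, no trend, only the compared factor in the model and leaving out each library. The members and lists were chosen with earlier results of these data known. Named members were the 5 largest changes of each direction past the threshold per comparison, the 5 highest and 5 lowest by mean, the members with 1 sign of KO minus WT in all conditions (up to 3 per sign) and Mrps18a, Mrps18b, Mrps18c, Mrpl12, Mrps12, Mrpl41, Mrps30 and Mrpl36. Other named genes were chosen after their values were seen. Overlaps of genes used mm9 spans, transcript lengths GENCODE M21, and promoters RefSeq on GRCm38.p6 by symbol, with no conversion between builds.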

Additional observations from a re-analysis of the deposited data

Results flagged for a closer look

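The members below moved in opposite directions in KO and WT cells, as deposited, by log2 differences on the log2(FPKM + 1) scale between 2 libraries of 1 genotype whose deposited intervals did not overlap in either genotype. Each genotype has 1 library per condition, so the difference between genotypes was not tested. The share of all tested genes that met this interval rule was not counted, so whether the counts below are unusual cannot be told. By direction alone, 26 members were above 0 in WT and below 0 in KO cells with LPS, against 9.62% of genes. Between tolerized and naive cells 29 were, against 11.5%. Between tolerized and LPS cells 10 were below 0 in WT and above 0 in KO cells, against 10%. After rescaling these counts by direction alone were 24, against 9.81% of genes, 31, against 11.1%, and 17, against 10.9%. Opposite directions were therefore about as common or more common after rescaling, though partly in other members than those named below.

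Between LPS and naive cells, Mrps18b differed by -0.50 in KO and 1.11 in WT cells, Mrpl54 by -0.68 in KO and 0.64 in WT cells, and Mrpl20 by -0.89 in KO and 0.29 in WT cells. Mrpl52, the most abundant member, differed by -0.65 in KO and 0.28 in WT cells. Mrpl35 differed by -0.54 in KO and 0.34 in WT cells, Mrpl27 by -0.52 in KO and 0.29 in WT cells, Mrpl39 by -0.31 in KO and 0.24 in WT cells, and Mrpl15 by -0.26 in KO and 0.46 in WT cells. All 8 were lower with LPS in KO cells and higher in WT cells as deposited. After rescaling 0 of the 8 were opposite, since the KO differences were then above 0 too, between 0.0038 for Mrpl20 and 0.57 for Mrpl15.

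Between tolerized and naive cells, Mrpl38 differed by -0.94 in KO and 0.53 in WT cells and Mrpl20 by -0.51 in KO and 0.23 in WT cells. Mrps6 differed by -0.43 in KO and 0.34 in WT cells, Mrps27 by -0.36 in KO and 0.44 in WT cells, and Mrpl35 by -0.26 in KO and 0.33 in WT cells. After rescaling all 5 remained opposite, with Mrpl35 closest to 0 in KO cells (-0.05). The spans of Mrps6 and Mrps27 overlap in part those of Slc5a3 and 6430562O15Rik in mm9, and reads in the shared stretches may not be told apart.

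Between tolerized and LPS cells the directions were turned round. Mrps18b differed by 0.40 in KO and -0.23 in WT cells, and Mrps17 by 0.29 in KO and -0.27 in WT cells. After rescaling neither was opposite, with Mrps18b at -0.23 in KO and -0.77 in WT cells and Mrps17 at -0.33 in KO and -0.81 in WT cells.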

How the results depend on the processing

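No paired analysis was possible because each group has 1 library and the labels carry no replicate numbers that pair samples. After rescaling, the member counts were 8 lower and 9 higher for LPS against naive, 2 lower for tolerized against naive, and 1 higher and 2 lower for tolerized against LPS, and the median member difference was 0.14 for LPS against naive and -0.15 for tolerized against LPS. With no filter on low values, 2 members were lower for tolerized against naive and 3 higher for tolerized against LPS, against 7.96% and 13.6% of the 16686 genes then tested in place of 10137. Leaving out 1 library at a time gave 19 to 42 members lower and 0 to 1 higher for LPS against naive, 0 to 6 lower for tolerized against naive, and 0 to 17 higher for tolerized against LPS. A left-out library leaves a condition with 1 sample, which is then assumed to vary like the others. The cause of the other changes was not tested. No member passed the threshold in opposite directions as deposited and after rescaling. However, 9 members not called with LPS as deposited rose after rescaling, among them Mrpl39, from -0.03 to 0.78. Of the values for single members, library pairs and family medians under the alternatives, 40 kept their direction without passing the threshold, 14 moved and 202 stayed. Of the counts of called members, 17 moved and 79 stayed equal or close to the main count. Counts of 0 that stayed 0, such as those between genotypes, are among the 79. This tally therefore does not show how stable the counts above 0 were. Depth is unknown from FPKM alone, and the interval half-widths limit what can be told apart between single libraries.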

Other observations

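Mrps11 and Mrpl46, of the small and the large subunit, are neighbours on chromosome 7 in mm9 with 41 bases between their spans. Mrps11 had 7.90 and 7.87 FPKM in KO and WT tolerized cells, 4.40 and 6.70 FPKM in KO and WT LPS cells, and 12.6 and 9.42 FPKM in KO and WT naive cells. It fell with LPS by 0.88 (limma adjusted p = 0.024). Mrpl46 had 17.2 and 16.3 FPKM in KO and WT tolerized cells, 14.0 and 17.9 FPKM in KO and WT LPS cells, and 16.2 and 13.5 FPKM in KO and WT naive cells, a log2 difference of 0.09 with LPS (limma adjusted p = 0.73). Whether the LPS differences of these neighbours differ from each other was not tested.

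In GENCODE M21, 18 of 76 members (23.7%) started within 1000 bases of a protein-coding gene on the other strand that runs the opposite way, against 6.97% of 21924 protein-coding genes. Among these partners are Sars2, the mitochondrial seryl-tRNA synthetase, beside Mrps12, Ndufs6, a subunit of respiratory complex I, beside Mrpl36, Ppp1r10 beside Mrps18b and Helq beside Mrps18c. The share among tested genes was not counted, so whether members differ in this from other expressed genes cannot be told. This description was chosen after the data were seen, and the shares were not tested.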
